A study of Mus musculus with 8 samples.

Results

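The promoters of 3 mouse genes, Msrb1, Lpin2 and Bhlhe40, were examined for their chromatin contacts in H3K27ac HiChIP data from HPC-7 cells. In HiChIP as run here, fragmented chromatin was bound by an antibody and DNA ends in spatial proximity were then ligated. H3K27ac, the histone mark targeted here, labels active promoters and enhancers. The 3 genes, of 21751 protein-coding genes, were chosen by their number of promoter loops, which was higher in p42 than in p30 cells under both treatments, so the differences in loops, contacts and coverage between p42 and p30 describe the choice and were not tested. A promoter loop is a listed pair of 5 kb bins of which one, the start-site bin, holds the canonical transcription start. The other bin is called the partner bin. The 3 promoters took part in 97 different loops of the 214313 in the union of the lists, 25 at Msrb1, 37 at Lpin2 and 35 at Bhlhe40.

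HPC-7 is a mouse hematopoietic progenitor line with little CEBPA of its own, and all cells were transduced to express one isoform of this transcription factor. CEBPA p42 is the full-length protein and p30 is a shorter form translated from another start site of the same transcript. N-terminal mutations in leukemia leave p30 as the only form translated from the mutated gene. The cells were either untreated (UT) or exposed to LPS, a bacterial ligand of TLR4, at 100 ng/mL for 2 h, which gave the groups p30 UT, p42 UT, p30 LPS and p42 LPS with 2 libraries each, and no line without ectopic CEBPA. The labels did not say whether the isoforms were constitutive or fused to an inducible receptor domain, and cell lines were bulk populations, so that fewer cells with a contact and fewer contacts per cell cannot be told apart. One loop list per group was deposited for both libraries together, so no spread between replicates could be measured and every difference compares these lists, not the conditions. The lists held 80489 (p30 UT), 158233 (p42 UT), 94609 (p30 LPS) and 78591 (p42 LPS) loops from 14503330 to 18999991 modelled contacts each, and each was also cut to the 78591 loops with the smallest q-values, called lists of equal size. All 10 hematopoietic progenitor genes checked, such as Kit and Gata2, had promoter loops in all 4 lists, whereas of 8 genes of other cell types only Ins2 did.

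Promoters and enhancers that carry H3K27ac can be brought together by chromatin folding, and contacts fall with distance along the chromosome and rise with the amount of marked chromatin at both ends. MSRB1 is a selenoprotein that reduces oxidized methionine, including in actin, and is expressed in macrophages. LPIN2 is a phosphatidate phosphatase that makes diacylglycerol for lipid synthesis, and its loss causes an inherited inflammatory bone disease. BHLHE40 is a transcriptional repressor that binds the E-box CACGTG, feeds back on the circadian clock and tunes cytokine genes in immune cells.

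On GRCm39, Msrb1 lies on the + strand at chr17:24955614-24961745, with its start-site bin at chr17:24955001-24960000. Lpin2 lies on the + strand at chr17:71490535-71556813, with its start-site bin at chr17:71490001-71495000. Bhlhe40 lies on the + strand at chr6:108636626-108644502, and its start-site bin, chr6:108635001-108640000, also holds the start of the antisense lncRNA 0610040F04Rik, whose contacts cannot be separated from those of Bhlhe40. The 250 bases upstream of each canonical start are shown as the promoter sequence within each start-site bin. The loops were resolved to 5 kb bins and cannot be placed on these bases. They cover chr17:24955364-24955613, chr17:71490285-71490534 and chr6:108636376-108636625, and capitals mark the E-box.
Msrb1: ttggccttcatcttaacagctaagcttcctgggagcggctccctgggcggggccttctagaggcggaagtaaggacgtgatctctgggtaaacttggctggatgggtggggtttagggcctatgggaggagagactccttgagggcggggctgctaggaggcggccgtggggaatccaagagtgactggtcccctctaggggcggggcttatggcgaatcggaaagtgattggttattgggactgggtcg
Lpin2: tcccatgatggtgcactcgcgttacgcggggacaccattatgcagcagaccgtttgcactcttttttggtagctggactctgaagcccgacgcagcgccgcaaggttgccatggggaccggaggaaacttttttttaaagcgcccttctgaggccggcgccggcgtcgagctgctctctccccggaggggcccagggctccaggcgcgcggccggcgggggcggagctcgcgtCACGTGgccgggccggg
Bhlhe40: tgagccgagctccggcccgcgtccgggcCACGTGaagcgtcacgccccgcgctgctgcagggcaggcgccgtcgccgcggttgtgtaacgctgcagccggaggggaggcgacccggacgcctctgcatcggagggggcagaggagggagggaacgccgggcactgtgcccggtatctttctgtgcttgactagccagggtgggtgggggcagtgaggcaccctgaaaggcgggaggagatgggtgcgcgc

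The CpG-rich promoters of Lpin2 (GC content 66.8%, 28 CpG) and Bhlhe40 (71.6%, 27 CpG) each held 1 CACGTG, at positions -17 to -12 and -222 to -217 from the start. The Msrb1 promoter (59.6%, 11 CpG) held none. This palindrome was found in 6.26% of the 21751 promoters of the same length. On neither strand did the 3 windows hold TTGCNNAA (C/EBP, in 9.34% of promoters), TGATGNAA (C/EBP:ATF, 3.39%), TGANTCA (AP-1, 6.17%), the NF-kB letters GGGA and CC with 4 bases between (18.2%) or GAGGAAGT (PU.1, 2.08%). A match or its absence describes these letters in this window alone.

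Msrb1 had 4 promoter loops in p30 UT, 23 in p42 UT, 1 in p30 LPS and 11 in p42 LPS. Both p42 lists were above both p30 lists. At equal list size the counts were 3, 14, 0 and 11, with the isoforms in the same order. For Lpin2 there were 8, 32, 16 and 21 loops in the same order, and 7, 20, 11 and 21 in lists of equal size. For Bhlhe40 there were 12, 28, 11 and 18 loops, and 11, 20, 8 and 18 in lists of equal size. Of all genes with a promoter loop, 79% had more in p42 than p30 in UT and 20.6% after LPS in the lists as deposited, and 17.2% had more under both treatments. At equal list size these were 38.3%, 30.5% and 14%, with 15.8% having fewer in p42 under both. By the lesser of the UT and LPS differences at equal list size, Cebpe ranked highest with 14, ahead of Msrb1 (11), Lpin2 and Erg (both 10) and Dgkd and Bhlhe40 (both 9). Parp10 and Slc23a3 lay just outside, both with 8. The 3 genes were thus near the top of this order without filling it.

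**Figure D1:**
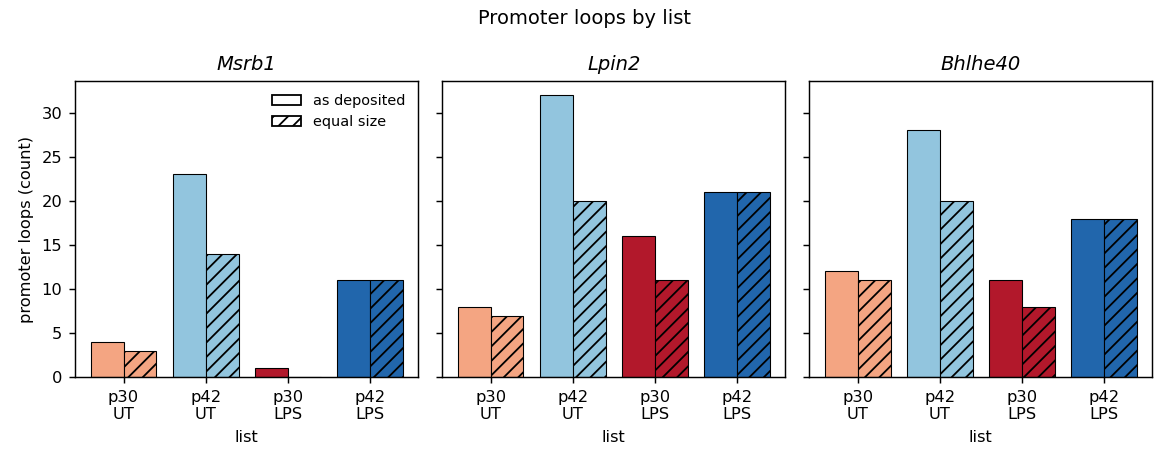
Number of promoter loops (vertical axis, count) of Msrb1, Lpin2 and Bhlhe40 in each of the 4 lists (horizontal axis). Plain bars are the lists as deposited and hatched bars the lists of equal size (78591 loops each), and in every panel the p42 bar stands above the p30 bar of the same treatment, as the choice of the genes required.

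Neighboring partner bins are not separate contacts. When runs of adjacent partner bins were merged, Lpin2 had 7 stretches in both UT lists, 11 in p30 LPS and 10 in p42 LPS, so that its loops in p42 formed wider stretches and not more of them. Merging left 4 stretches in p30 UT, 8 in p42 UT, 1 in p30 LPS and 8 in p42 LPS for Msrb1. For Bhlhe40 it left 9, 11, 5 and 9 in the same order, a difference of 2 in UT and of 4 after LPS.

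The loops of Msrb1 reached mostly downstream over a gene-dense stretch. Distances are given from the start-site bin to the partner bin, negative upstream. In p42 UT 20 loops lay downstream and 3 upstream, and all 11 loops of p42 LPS lay downstream, between 65 and 160 kb. Of the 25 partner bins, 9 held the start of a protein-coding gene. Partner bins in both p42 lists held the starts of Meiob, a meiotic single-stranded DNA binding protein (65 kb), of Fahd1 and Hagh, both enzymes of small metabolites (110 kb), and of Eme2, a DNA repair nuclease subunit, with Mrps34 of the mitochondrial ribosome (155 kb). The Meiob bin had 10 contacts in p30 UT, 25 in p42 UT and 16 in p42 LPS. It was missing from p30 LPS. The bin of Fahd1 and Hagh had 10, 25 and 14 contacts in the same lists and was likewise missing from p30 LPS.

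A single Msrb1 loop stood in all 4 lists. It joined the promoter to chr17:25100001-25105000 at 145 kb, a bin with exons of Igfals, Nubp2 and Spsb3. It had 10 contacts in p30 UT, 26 in p42 UT, 9 in p30 LPS and 15 in p42 LPS, which were 5.16, 11.9, 5.25 and 7.53 times the count the caller expected. Counts were highest in p42 UT. Coverage relative to the mean peak bin was 2.73 in p30 UT and 2.21 in p42 UT at this partner bin, and 1.75 and 4.04 at the start-site bin. Of the 25 Msrb1 loops, 21 were in a p42 list and in neither p30 list, 5 of them in both p42 lists, 1 was in all 4 lists and 0 were in p30 lists alone. Over the whole union, 40.2% of loops were in at least one p42 list without being in a p30 list, 5.53% were shared by the p42 lists alone, 14.5% were in all 4 lists and 17.4% were in p30 lists alone. Short-range loops to the starts of Rpl3l (-10 kb, 143 contacts, 2.56 times expected) and Ndufb10 (-15 kb, 84 contacts, 2.53 times expected), and a far one to the start of Pgp (-270 kb, 14 contacts), were listed in p42 UT only.

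The loops of Lpin2 ran in both directions. Upstream they covered much of Myom1, which encodes a sarcomere protein, as far as the adjoining myosin light chain genes, and downstream they stayed within Lpin2 itself and the end of Emilin2, an extracellular matrix gene. The highest contacts over expected were at chr17:71395001-71400000 (-95 kb), exonic in Myom1, with 42 contacts in p42 UT (13.97 times expected), 15 in p30 LPS (6.73 times) and 24 in p42 LPS (8.39 times). This pair was missing from p30 UT. The adjacent bin at -100 kb had 10 contacts in p30 UT, 29 in p42 UT, 17 in p30 LPS and 21 in p42 LPS. At -90 kb the contacts were 12, 27, 10 and 21. The block was thus highest in p42 UT in each of its 3 bins, and p42 LPS was above p30 LPS in each. The pair at -120 kb, also exonic in Myom1, was in all 4 lists and followed another order, with 13 contacts in p30 UT (7.19 times expected), 21 in p42 UT (10.2 times), 19 in p30 LPS (10.5 times) and 23 in p42 LPS (11.3 times). It was the highest pair by contacts over expected in each list except p42 UT, and the isoforms were close after LPS. The neighboring pair at -125 kb had 15 contacts in p30 LPS and 16 with p42.

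Relative coverage of the bin at -95 kb was 1.74 in p30 UT, 3.44 in p42 UT, 2.18 in p30 LPS and 3.92 in p42 LPS, so coverage itself was higher in p42. Farther upstream, the bins with the starts of Myl12b (-195 kb) and of Myl12a and Gm49909 (-185 kb) were partners in both p42 lists. The pair at -195 kb had 12 contacts in UT and 14 after LPS in p42, and was missing from both p30 lists. The pair at -185 kb had 18 contacts in p42 UT, 9 in p30 LPS and 13 in p42 LPS. Myl12a and Myl12b encode myosin regulatory light chains. Their own promoters also had more loops in p42, those to Lpin2 included. In the lists as deposited there were 4, 19, 11 and 19 for Myl12a and 3, 15, 3 and 7 for Myl12b in p30 UT, p42 UT, p30 LPS and p42 LPS. At equal list size these were 4, 8, 8 and 19 for Myl12a and 3, 8, 2 and 7 for Myl12b. Of all genes with a promoter loop, 14% had more in p42 under both treatments at equal list size. Gm49909 shares its start-site bin with Myl12a and therefore its counts.

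Within the Lpin2 gene, 8 consecutive bins from 10 to 45 kb were partners in p42 UT, against 2 in p30 UT and 4 in each LPS list. The pair at 10 kb was listed throughout, with 81 contacts in p30 UT, 134 in p42 UT, 69 in p30 LPS and 81 in p42 LPS at 1.85 to 2.73 times expected. Its raw count was equal in p30 UT and p42 LPS, at 2.39 and 1.85 times expected. These lists had 17976716 and 15831583 modelled contacts. Counts of single pairs are raw unless called scaled, so their order between lists is not adjusted for depth. Of the 37 Lpin2 loops, 19 were in a p42 list and neither p30 list, 6 were in all 4 lists and 2 were in p30 lists alone, beside 40.2%, 14.5% and 17.4% of all loops.

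The loops of Bhlhe40 ended at 0 starts of protein-coding genes. Most went upstream into Itpr1, the gene of an endoplasmic reticulum calcium channel, between -110 and -245 kb, and all 35 partner bins were H3K27ac peak bins. In p42 UT 25 loops lay upstream and 3 downstream, and in p42 LPS 17 and 1. At chr6:108480001-108485000 (-155 kb), exonic in Itpr1, there were 9 contacts in p30 UT (5.65 times expected), 22 in p42 UT (11.1 times) and 20 in p42 LPS (11.4 times), and the pair was missing from p30 LPS. Relative coverage of this bin was 1.41, 3.44, 1.29 and 2.73 in p30 UT, p42 UT, p30 LPS and p42 LPS. Both p42 lists were thus above both p30 lists in coverage and above p30 UT in contacts, and the contacts in p30 LPS are unknown, with 9 needed for a listing.

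Not every Bhlhe40 loop followed this order. At -130 kb the contacts were 10 in p30 UT, 27 in p42 UT, 9 in p30 LPS and 11 in p42 LPS, so p42 stood apart in UT alone. The farthest pair, at -245 kb, had 11, 8, 9 and 11 contacts. Downstream at 50 kb, p30 LPS had 20 contacts (10.8 times expected), more than p42 UT with 18 (6.74 times) and p42 LPS with 10 (4.68 times), and p30 UT did not list the pair. Here p30 LPS was the highest list. Of the 35 Bhlhe40 loops, 17 were in a p42 list and neither p30 list, 4 were in all 4 lists and 3 were in p30 lists alone, beside the same 40.2%, 14.5% and 17.4% of all loops.

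**Figure D2:**
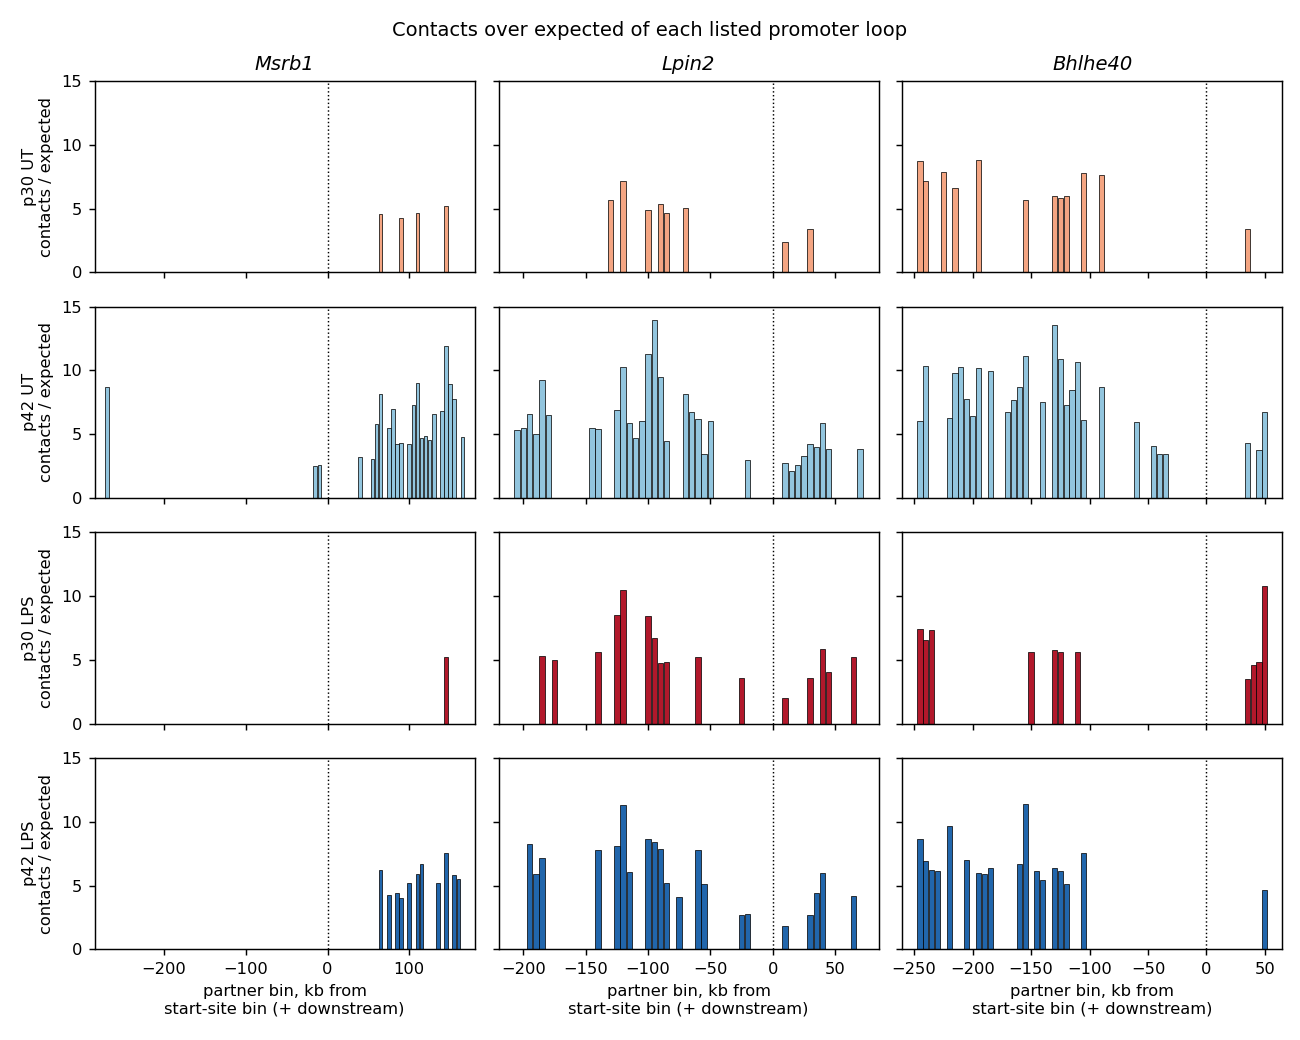
Contacts divided by the caller's expected count (vertical axis) for each listed promoter loop, by distance of the partner bin from the start-site bin in kb (horizontal axis, positive downstream), for 3 genes (columns) and 4 lists (rows). Msrb1 loops stood mostly downstream and Bhlhe40 loops mostly upstream, and the highest bar, 13.97, belongs to Lpin2 at -95 kb in p42 UT.

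The leading partner bins, those with the highest contacts over expected summed over both p42 lists among pairs in both, were searched for TTGCNNAA, the core of C/EBP sites. This is background for a study of a C/EBP factor. Matches are shown in capitals with 20 bases on each side, read on the + strand, so that a match on the other strand appears as its reverse complement.
Msrb1 partner, chr17:25100988-25101035: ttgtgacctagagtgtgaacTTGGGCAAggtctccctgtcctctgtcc
Lpin2 partner, chr17:71395598-71395645: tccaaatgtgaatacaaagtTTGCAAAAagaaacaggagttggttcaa
Lpin2 partner, chr17:71395875-71395922: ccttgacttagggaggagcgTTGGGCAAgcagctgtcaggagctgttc
Lpin2 partner, chr17:71396224-71396271: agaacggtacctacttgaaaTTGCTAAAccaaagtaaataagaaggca
Lpin2 partner, chr17:71396268-71396315: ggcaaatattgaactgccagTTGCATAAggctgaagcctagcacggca
Bhlhe40 partner, chr6:108480465-108480512: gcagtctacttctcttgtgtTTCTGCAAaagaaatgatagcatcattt

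The leading bin of Lpin2 held 4 matches and those of Msrb1 and Bhlhe40 held 1 each. Over all partner bins the mean number of matches was 2.16 for Msrb1, 2.43 for Lpin2 and 2.46 for Bhlhe40, beside 2.08 over 64985 peak bins. The AP-1 letters TGANTCA were found 1.36, 1.70 and 2.09 times per partner bin, beside 1.53 over all peak bins. At least 1 C/EBP match was present in 85.8% of all peak bins, so a match in a bin of this length is common. Binding was not measured in these libraries.

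At loops in all 4 lists the contacts are known for each list. Every such count had to reach the listing threshold, and the lowest were at it, such as the 10 contacts of the Msrb1 loop in p30 UT and its 9 in p30 LPS, so these shares are not free of the threshold. The p42 share of contacts in UT was 72.2% at Msrb1 (95% Wilson interval 56.0 to 84.2%, 10 contacts in p30 and 26 in p42, 1 loop). It was 63.5% at Lpin2 (58.8 to 68.1%, 148 and 258 contacts, 6 loops) and 64.3% at Bhlhe40 (55.1 to 72.6%, 40 and 72 contacts, 4 loops). The number of modelled contacts alone would give 51.4%, and the share over all 31032 loops in all 4 lists was 57.5%. The caller's expected counts, which include coverage, would give 53.0%, 58.1% and 53.5% at the 3 promoters. After LPS the p42 shares were 62.5% (42.7 to 78.8%) at Msrb1, 55.2% (49.8 to 60.5%) at Lpin2 and 54.5% (43.5 to 65.2%) at Bhlhe40, beside the 52.2% given by modelled contacts and the 53.7%, 55.7% and 52.1% given by the expected counts. Over all loops in all 4 lists the share after LPS was 48.6%. At loops in both LPS lists it was 62.5% at Msrb1 (the same 1 loop) and 55.9% (51.9 to 59.8%, 14 loops) at Lpin2. At Bhlhe40 it was then 48.4% (39.8 to 57.1%, 6 loops), below 50%. These intervals cover counting error only.

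The number of reads per bin, called coverage, was higher in p42 at all 3 start-site bins. Msrb1 had 4215 reads in p30 UT, 11768 in p42 UT, 3748 in p30 LPS and 6719 in p42 LPS. Divided by the mean of peak bins in each list, these were 1.75, 4.04, 1.67 and 3.47, so that p42 was 2.31 times p30 in UT and 2.07 times after LPS. The Msrb1 ratio was above that of 99.8% of 6643 start-site peak bins in UT and 99.8% of 6010 after LPS. Lpin2 had 4427, 7496, 5078 and 5289 reads, with relative ratios of 1.40 in UT and 1.203 after LPS. Bhlhe40 had 2678, 5060, 2432 and 2702 reads, with relative ratios of 1.56 and 1.28. A relative ratio of at least 1.5 was seen for 3.84% of start-site bins in UT, which included Msrb1 and Bhlhe40, and for 1.75% after LPS, which included Msrb1 and neither of the other genes.

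The partner bins differed among the genes. Coverage is listed only for bins with some loop in that list. Of 19 Msrb1 partner bins with coverage in both UT lists, 10 had higher relative coverage in p42, with a median ratio of 1.02. At Lpin2 it was higher in 34 of 34 bins (median ratio 1.27), and at Bhlhe40 in 21 of 22 (1.57). After LPS the counts were 9 of 16 (1.05), 29 of 34 (1.25) and 18 of 20 (1.52). Over all peak bins with coverage in both lists it was higher in p42 in 45.7% of 41107 bins in UT (median ratio 0.977) and in 50% of 36445 bins after LPS (1.000). At Lpin2 and Bhlhe40, coverage was thus higher in p42 at the promoter and at most partner bins with coverage in both lists. At Msrb1 it was higher mainly at the promoter end. At Bhlhe40 such coverage was given for 22 of 35 partner bins in UT and 20 after LPS. Many partner bins entered through p42 lists without a p30 list, namely 21 of 25 at Msrb1, 19 of 37 at Lpin2 and 17 of 35 at Bhlhe40. All peak bins were not chosen in this way, and adjacent partner bins are not separate. The part of coverage in the number of loops was not tested.

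**Figure D3:**
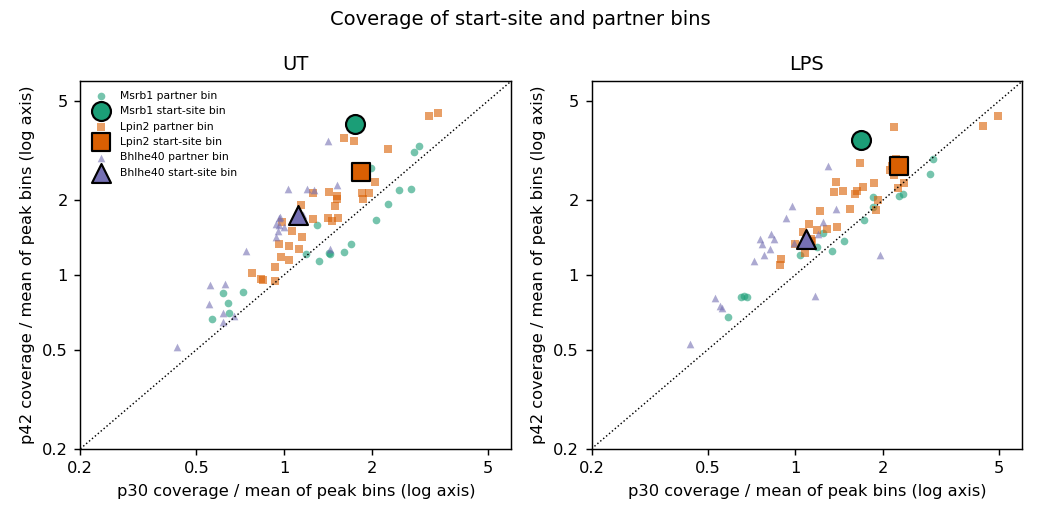
Coverage relative to the mean peak bin of the same list, p30 on the horizontal and p42 on the vertical axis (both log axes), for start-site bins (large symbols) and partner bins (small symbols) in UT (left) and after LPS (right). The dotted line marks equal values, and the Msrb1 start-site bin lies farthest above it among the 3 start-site bins (1.75 in p30 and 4.04 in p42 in UT) while its partner bins lie around the line.

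A list holds significant pairs alone, so the contacts of a missing pair are unknown, but the count that would have been listed can be estimated. In UT, 19 Msrb1 loops of p42 were missing from p30, of which 14 had an estimate. A median of 10 contacts would have been needed for a listing, and the p42 contacts scaled to the p30 depth (median 14.2) reached the needed count at 12 of the 14. For Lpin2, 25 were missing, and the count was reached at 21 of 24 with an estimate. For Bhlhe40, 17 were missing, and it was reached at 8 of 8 with an estimate, the other 9 having none. After LPS, 10, 7 and 12 pairs were missing at Msrb1, Lpin2 and Bhlhe40, and it was reached at all 6, 5 and 7 that had an estimate. These pairs were chosen by passing the similar threshold of the p42 list, so reaching the p30 threshold was largely given by the choice. No p42 excess can be read from these counts. In the reverse direction, p30 loops missing from p42 reached it at 1 of 1 at Lpin2 and at Bhlhe40 in UT. After LPS they did so at 1 of 2 and 2 of 4 with an estimate. Few pairs of p42 exceeded the needed count by 2 times or more, namely 1 at Msrb1, 2 at Lpin2 and 1 at Bhlhe40 in UT. Most missing pairs were thus near the limit of detection and cannot be called absent from p30.

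**Figure D4:**
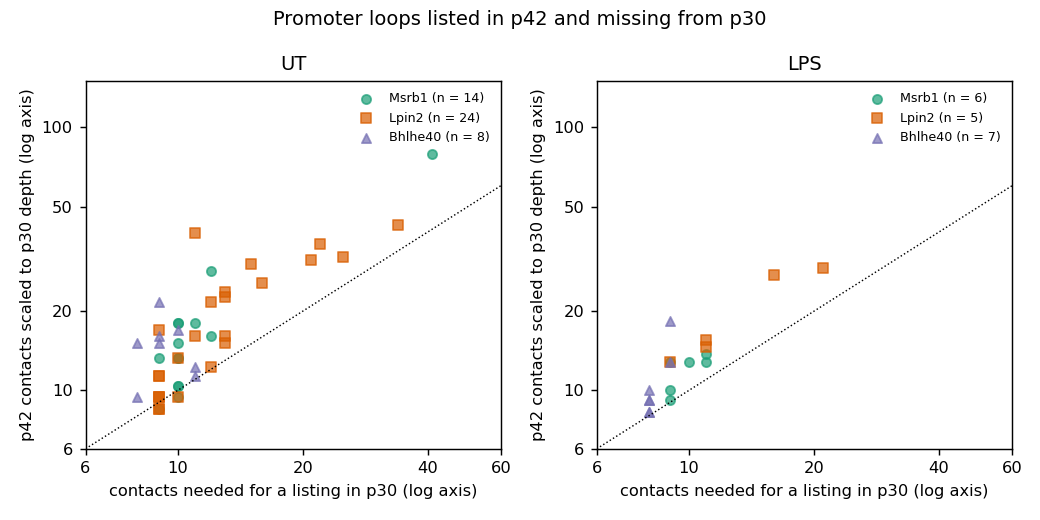
Each point is a promoter loop listed in p42 and missing from p30 of the same treatment (left UT, right LPS), with the contacts that a listing in p30 would have needed (horizontal, log axis) and the p42 contacts scaled to the p30 number of modelled contacts (vertical, log axis). The dotted line marks equal values, and most points lie above it, for example 21 of the 24 Lpin2 points in UT. The choice of pairs listed in p42 largely gave this.

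LPS was compared within each isoform. In p42, loops were fewer after LPS at all 3 promoters in the lists as deposited (23 and 11, 32 and 21, 28 and 18 in UT and LPS), as they were for 82.6% of genes, with 4.27% having more, the p42 LPS list being the shorter. In lists of equal size the p42 counts were 14 and 11 at Msrb1, 20 and 21 at Lpin2 and 20 and 18 at Bhlhe40, where 41.3% of genes had fewer after LPS and 28.3% had more. In p30, Lpin2 had 8 loops in UT and 16 after LPS, in a direction shared by 47% of genes, while Msrb1 had 4 and 1 and Bhlhe40 had 12 and 11, a direction shared by 24.4%. The p30 counts at equal list size were 3 and 0, 7 and 11, and 11 and 8 for Msrb1, Lpin2 and Bhlhe40, where 39.1% of genes had more after LPS and 34% had fewer. The LPS share of contacts at loops in all 4 lists was 47.4% (27.3 to 68.3%) in p30 and 36.6% (23.6 to 51.9%) in p42 at Msrb1. It was 49.7% (44.0 to 55.3%) and 41.1% (36.6 to 45.8%) at Lpin2, and 46.7% (35.8 to 57.8%) and 36.8% (28.6 to 46.0%) at Bhlhe40. Modelled contacts alone would give 44.7% in p30 and 45.5% in p42. The caller's expected counts at the same loops would give 47.0% and 47.7% at Msrb1, 50.0% and 47.6% at Lpin2 and 48.7% and 47.3% at Bhlhe40. The p42 intervals at Lpin2 and Bhlhe40 lay below the expected-count share. Over the 18 Lpin2 loops in both p42 lists the share was 45.3% (42.1 to 48.5%), an interval that included the expected 47.9%. Over the 14 such Bhlhe40 loops it was 41.1% (36.3 to 46.1%), below the expected 47.0%. All loops in all 4 lists gave 49.7% in p30 and 40.8% in p42. The lower LPS share in p42 was therefore found over the whole lists too.

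Some pairs were listed after LPS only. Lpin2 had 2 pairs in both LPS lists and neither UT list. The pair at -25 kb, over the lncRNA 1600022D10Rik, had 21 contacts in p30 and 22 in p42 after LPS, and the pair at 65 kb, at the ends of Lpin2 and Emilin2, had 15 and 14. Bhlhe40 had 1 such pair, at -235 kb in Itpr1, with 9 and 8 contacts. Msrb1 had none. The -25 kb pair would have needed 19 contacts in p30 UT and 23 in p42 UT. Of all Lpin2 pairs listed after LPS and missing from UT, the LPS contacts scaled to the UT depth reached the needed count at 9 of 9 with an estimate in p30 and at 3 of 3 in p42. In the reverse direction, Lpin2 pairs listed in UT and missing after LPS reached it at 1 of 2 in p30 and at 6 of 13 in p42. All these pairs were chosen by a listing. Scaling to the deeper UT lists raised the counts and scaling to the LPS lists lowered them. The contrast between the directions is therefore not a measure of change with LPS.

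The surroundings of the promoters were examined within 300 kb on each side. Around Lpin2, loops that did not touch its promoter numbered 120 in p30 UT, 501 in p42 UT, 215 in p30 LPS and 326 in p42 LPS. Around Bhlhe40 they numbered 20, 155, 19 and 57. Around Msrb1 they numbered 211, 404, 219 and 177. At equal list size the counts were 119, 224, 172 and 326 around Lpin2, 19, 48, 11 and 57 around Bhlhe40, and 203, 220, 180 and 177 around Msrb1. The regions of Lpin2 and Bhlhe40 thus held more p42 than p30 loops beyond the promoter itself in both forms of the lists. Around Msrb1 the counts of both isoforms were close at equal size. Neighboring start-site bins were then counted at equal list size without their loops to the 3 promoters, with genes that share a bin counted as 1. More loops in p42 under both treatments were found at 3 of 5 bins near Lpin2 (those of Myl12b, of Myl12a with Gm49909, and of Smchd1, a chromatin protein) and at 2 of 2 near Bhlhe40 (Arl8b, a lysosomal GTPase, and Edem1, of protein quality control). Near Msrb1 it was 7 of 30, with 3 having fewer. Of all genes, 14% had more and 15.8% had fewer at equal list size. Nearby bins share the loops between them, so they are not independent.

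Genes that act in the same processes were listed for each member. Among 18 genes of methionine sulfoxide repair, thioredoxin and selenoprotein synthesis, 13 had loops in lists of equal size, 3 with more in p42 under both treatments and 2 with fewer, beside 14% and 15.8% of all genes. The median difference was 1 in UT and 0 after LPS, beside 0 and 0 over all genes. The other methionine sulfoxide reductases, Msra, Msrb2 and Msrb3, had no loops in lists of equal size. Mical3, an enzyme of the family that oxidizes actin methionines, had fewer loops in p42 (9 in p30 UT, 3 in p42 UT, 6 in p30 LPS and 3 in p42 LPS).

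Among 27 genes of phosphatidate and glycerolipid synthesis, 16 had loops, 4 with more in p42 under both treatments and 5 with fewer, again beside 14% and 15.8% of all genes. The median differences were 0 in UT and -0.5 after LPS, beside 0 and 0 over all genes. Lpin1 and Lpin3, the other lipins, had none. Dgat1, which makes triglyceride from diacylglycerol, had 2, 6, 1 and 6 loops, and Pcyt2, of phosphatidylethanolamine synthesis, had 6, 11, 4 and 7. Pld2, which makes phosphatidate from phosphatidylcholine, had 5, 1, 7 and 2. The genes named here thus stood on both sides. Among 21 circadian clock genes, 15 had loops, 1 with more in p42 under both treatments (Nfil3, a repressor of clock output genes, 3, 8, 1 and 11) and 1 with fewer, with medians of 0 and -1. For all genes the shares were the same 14% and 15.8% and the medians 0 and 0. Bhlhe41, the paralog of Bhlhe40, had 1, 0, 0 and 1.

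The genes most like each member were those with the smallest Euclidean distance in log2(promoter loops + 1) over the 4 lists of equal size, among genes more than 1 Mb away. Hk3 (distance 1.24), a hexokinase of myeloid cells, and Nfil3 (1.24) were among the 3 closest to Msrb1. Lpin2 was closest to Ppp1r15b (0.49), Parp10 (0.55) and Taldo1 (0.64). Bhlhe40 was closest to Parp10 (0.38), 1700017B05Rik (0.40) and Ncf1 (0.42), a subunit of the phagocyte NADPH oxidase. Parp10 was thus among the closest for 2 of the 3, with 9 loops in both p30 lists and 17 in both p42 lists. Likeness over 4 lists is a description of these counts.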

How the data were processed

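H3K27ac HiChIP was performed by the authors with an MNase-based kit on 8 libraries, 2 per group. Reads were mapped to mm39, the assembly GRCm39, with BWA-MEM 0.7.17 and parsed and deduplicated with pairtools, and loops were called with FitHiChIP. Of the 4 deposited lists (26 columns, 5 kb bins, q under 0.01), 12 value columns were used. How replicates were pooled was not stated.

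The contact count and the coverage deposited by the authors are whole numbers without normalization. The deposited expected count is the caller's estimate from distance and coverage, and the contact probability is a fraction of modelled contacts. The coverage bias ratio deposited by the authors is coverage divided by the mean of peak or other bins. The deposited p-value and q-value are those of the caller's binomial test.

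Canonical starts of protein-coding genes were taken from GENCODE M39. All 21 chromosomes matched GRCm39, and promoter sequences were read from that assembly. Modelled contacts are the expected count divided by the probability. Intervals of shares are 95% Wilson intervals. For a missing pair, the expected count was the median of the 25 listed loops of the same distance and peak class whose product of coverage biases was nearest, and the needed count is the smallest whose binomial p reaches the largest listed p. Tested on listed loops, it gave the same needed count for 96.0 to 97.2% per list. On 2000 simulated pairs, 99.65% were within 1 contact.

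Genes named are the members, genes starting in the same bin or in partner bins of both p42 lists, related genes differing by at least 3 under both treatments, the 2 next in rank, and the 3 most alike, of which the closest to Msrb1 is not reported here. Other names, such as those of annotated partner bins, were chosen after their values were seen. The members and lists were chosen with earlier results of these data known. Python 3.11.15, pandas 2.3.3, numpy 2.4.6, scipy 1.17.1 and matplotlib 3.10.9 were used.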

Additional observations from a re-analysis of the deposited data

Results flagged for a closer look

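For 4 values the change with LPS had the opposite direction in p30 and in p42. Each group has 1 pooled list, and the difference between isoforms was not tested. All are log2 changes from UT to LPS. The number of Lpin2 promoter loops in the lists as deposited was higher by 1.00 in p30 and lower in p42 (-0.61), which differ by 1.61. In lists of equal size both changes were positive (0.65 and 0.07).

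Contacts per modelled contact at loops in all 4 lists were higher after LPS in p30 and lower in p42 at all 3 promoters. For Msrb1 the changes were 0.16 and -0.53, a difference of 0.69 that rests on 1 loop. For Lpin2 they were 0.29 and -0.26 (difference 0.55), and for Bhlhe40 0.12 and -0.51 (difference 0.63). The p30 changes rest on few contacts (10 in UT and 9 after LPS at Msrb1, 148 and 146 at Lpin2, 40 and 35 at Bhlhe40), and the 95% Wilson intervals of all 6 LPS shares, in p30 and in p42, included the 44.7% (p30) or 45.5% (p42) given by modelled contacts. Against the caller's expected counts, the p42 intervals at Lpin2 (36.6 to 45.8%) and Bhlhe40 (28.6 to 46.0%) lay below the expected shares of 47.6% and 47.3%. Over loops in both p42 lists, the Lpin2 interval (42.1 to 48.5%, 18 loops) included the expected 47.9%. The Bhlhe40 interval (36.3 to 46.1%, 14 loops) lay below the expected 47.0%. Over loops in both p42 lists, the Lpin2 share of 45.3% was close to the 45.5% given by modelled contacts, so its p42 change depends on the loops taken. The share was lower at Msrb1 (41.7%, 9 loops) and Bhlhe40 (41.1%, 14 loops). Over all 31032 loops in all 4 lists the LPS share of contacts was also higher in p30 (49.7%) than in p42 (40.8%).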

How the results depend on the processing

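No paired analysis was possible because each deposited list pools both replicates, and no library could be left out. The alternatives gave 30 differences in promoter loops between p42 and p30, of which 28 were positive and 16 lay within 1.5 times the main value. In lists of equal size the difference was 11 at Msrb1, 13 at Lpin2 and 9 at Bhlhe40 in UT, and 10 at Lpin2 after LPS. With adjacent partner bins merged it was 4 at Msrb1, 0 at Lpin2 and 2 at Bhlhe40 in UT, and -1 at Lpin2, turning the direction, and 4 at Bhlhe40 after LPS. With the window widened by 1 bin to either side it was 39 at Msrb1, 63 at Lpin2 and 36 at Bhlhe40 in UT, and 19 at Msrb1 and 14 at Lpin2 after LPS. A wider window and merging change what is counted by construction. Of the 22 alternative p42 shares of contacts, 7 rested on the same loops as the main value, and the other 15 lay within the main intervals. Of the 22, 21 were above 50%. The exception was the Bhlhe40 share after LPS at loops in both LPS lists, 48.4% against the main 54.5%, which turned the direction. Equal size left no Msrb1 loop in all 4 lists, so it gave no share. Depth limits the pairs near the listing threshold, which can be missing from a list at similar contact numbers.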
